A study of Mus musculus with 7 samples.

Results

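A set of 10 imprinted genes of growth control was followed in sorted mouse heart muscle cells at postnatal day 30 (P30, 3 libraries) and postnatal day 6 (P6, 4 libraries). The members were chosen by symbol: Igf2, Dlk1, Peg3, Plagl1, Slc38a4 and Mest, which mice express mainly from the paternal allele, and H19, Meg3, Cdkn1c and Grb10, which they express mainly from the maternal allele. All 10 had a row among the 23337 genes of the deposited table of read counts. The reads were not split by allele in that table, so "paternal" and "maternal" below are textbook labels of the genes and not measurements.

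Mice of both ages carried the Rosa-Tom or Rosa-Cas9 allele, labelled together as Rosa-Tom/Cas9. All received, at day 1, the virus AAV9-cTNT-Cre, an adeno-associated vector in which the cardiac troponin T promoter drives Cre recombinase. Cells, labelled cardiomyocyte, were freed from the heart with collagenase and sorted by fluorescence, and polyadenylated RNA was copied into libraries by a method for small amounts of RNA. The labels do not give the allele of each single mouse. Nor do they say whether libraries came from separate animals. A p-value here sets the difference between ages against library-to-library spread only, and that spread may be technical. Time since the virus differed with age, and the pair cannot be told apart. The libraries held 19368717, 16306173 and 15555469 counts in P30a, P30b and P30c, and between 10594932 (P6a) and 51427646 (P6c) counts at P6.

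Imprinted genes are transcribed only or mainly from 1 parental chromosome. Many of those expressed from the paternal copy promote fetal growth, and several expressed from the maternal copy restrain it. Igf2 and H19 are neighbours that share enhancers and a control region bound by CTCF, and Dlk1 and Meg3 form a comparable pair on another chromosome. In rodents the set is highly expressed before birth in many organs and is turned down during postnatal growth.

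All 9 members that were tested were lower at P30 than at P6, and the member left out of the test, Dlk1, had no read at P30. H19 entered the test only through its P6 libraries, so its fall adds no support to the counts of members given here. Igf2, Plagl1, H19 and Meg3 kept 0.0673, 0.092, 0.0774 and 0.0888 of their P6 level, Mest 0.184 of it, and Slc38a4 and Grb10 0.339 and 0.386 of it. Peg3 and the cell cycle inhibitor Cdkn1c changed least, to 0.518 and 0.654 of the P6 level. These are fitted ratios from edgeR's quasi-likelihood test, with p-values adjusted by Benjamini-Hochberg over 12561 tested genes and a threshold of 0.05. Across all tested genes 27.8% were lower at P30 by the same rule and 26.3% were higher, 54.1% in all. Of the 9 members 7 were also at least 2-fold lower, as were 12.4% of all tested genes. In these bulk samples, fewer cells with a transcript and less of it per cell cannot be told apart.

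Several of these genes host microRNAs, shown here because they are part of what the loci encode. The mature forms were not measured by libraries of polyadenylated RNA. Their sequences are shown 5′ to 3′ from RefSeq (GRCm38.p6), with the seed, bases 2 to 8, in capitals; no seed is shared among them.
mmu-miR-675-5p, in an exon of H19 on the minus strand of chromosome 7: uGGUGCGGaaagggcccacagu
mmu-miR-675-3p, in the same exon: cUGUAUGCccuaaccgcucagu
mmu-miR-483-3p, in an intron of Igf2 on the minus strand of chromosome 7: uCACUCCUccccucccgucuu
mmu-miR-335-5p, in an intron of Mest on the plus strand of chromosome 6: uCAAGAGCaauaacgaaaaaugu
mmu-miR-770-5p, in an exon of Meg3 on the plus strand of chromosome 12: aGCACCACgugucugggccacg
In the mouse placenta miR-675 is known to act on Igf1r, the receptor of the insulin-like growth factors. The count table had rows of their own for Mir675, Mir483, Mir335 and Mir770, listed at 0 in all 7 libraries. Mir675 and Mir770 overlap exons of H19 and Meg3, and reads there could be counted for either gene or for neither. A 0 in those rows therefore need not mean that no read fell there.

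The members' promoters were read next. RefSeq (GRCm38.p6) gave 17 start sites for 8 of the members, and the 250 bases before each were searched on both strands for GGGGCCCC (the core bound by Plagl1), CCGCGNGG (the start of the CTCF core), GCCATNTT (YY1), GGGCGG (Sp1) and TATAAA. The counts are per gene and do not say which start was used. The 4 windows below are those with the Plagl1 core, with a TATA box in a long non-coding RNA, at the most downstream listed start of Igf2 and at the most CG-rich start; capitals mark the matches, which overlap in places.
Peg3, chr7:6730420-6730669, minus strand: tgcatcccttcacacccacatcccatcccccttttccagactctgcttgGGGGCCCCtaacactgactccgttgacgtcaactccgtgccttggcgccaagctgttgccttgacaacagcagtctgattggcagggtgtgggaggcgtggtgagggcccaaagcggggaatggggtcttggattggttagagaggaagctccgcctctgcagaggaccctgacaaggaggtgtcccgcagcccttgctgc
Meg3, chr12:109540746-109540995, plus strand: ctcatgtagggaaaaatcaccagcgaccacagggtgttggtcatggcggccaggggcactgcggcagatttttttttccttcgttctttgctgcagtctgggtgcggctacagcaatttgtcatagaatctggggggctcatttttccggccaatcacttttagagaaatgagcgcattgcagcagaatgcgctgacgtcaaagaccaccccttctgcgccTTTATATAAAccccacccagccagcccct
Igf2, chr7:142657497-142657746, minus strand: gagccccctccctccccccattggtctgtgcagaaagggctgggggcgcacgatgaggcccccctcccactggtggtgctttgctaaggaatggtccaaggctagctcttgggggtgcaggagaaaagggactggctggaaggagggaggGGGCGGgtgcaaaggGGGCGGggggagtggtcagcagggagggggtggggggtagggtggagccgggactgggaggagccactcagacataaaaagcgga
Grb10, chr11:12037421-12037670, minus strand: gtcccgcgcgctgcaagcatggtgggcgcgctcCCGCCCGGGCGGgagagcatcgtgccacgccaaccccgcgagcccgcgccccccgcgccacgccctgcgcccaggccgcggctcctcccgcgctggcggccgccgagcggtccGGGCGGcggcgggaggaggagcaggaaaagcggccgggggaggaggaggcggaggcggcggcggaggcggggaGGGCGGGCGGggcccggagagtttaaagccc
The Plagl1 core was in 1 of the 17 member windows, that of Peg3, and in 0.889% of all 32851 windows. The Sp1 box was in 9 of 17, against 32.7% of all windows, and the TATA letters in 2 of 17, against 12.4% of all. The YY1 letters were in 1 of 17, a start of Slc38a4, against 3.91% of all windows. The CTCF letters were in 0 of 17, against 5.07% of all. The Grb10 window held 40 CG pairs, more than 98.7% of all windows, and the Igf2 window held 6, which is also the median of all windows. Some windows overlap, such as those of a pair of Mest starts a few bases apart. A match of letters is a description and not a site.

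Igf2 encodes the fetal insulin-like growth factor, which signals through Igf1r and is cleared by Igf2r. It lies on chromosome 7 from 142650766 to 142666816, minus strand (GRCm38). Its level, in CPM (counts scaled to library size with TMM factors), was 3.46, 6.33 and 5.89 in P30a to P30c, against 62.7, 86.2, 82.9 and 76.3 in P6a to P6d. Every P6 library lay far above every P30 library. The log2 fold change, P30 over P6 here and below, was -3.89 ± 0.22 (SE; edgeR adjusted p = 1.7e-06), and only 0.971% of tested genes fell as far or farther. The P30 values rest on 62, 98 and 84 reads.

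Plagl1, a zinc finger transcription factor that regulates other imprinted genes in the mouse, followed a similar course. It had 6.03, 6.14 and 10.6 CPM in P30a to P30c, against 65.6, 73.5, 89.5 and 99.3 CPM in P6a to P6d. The ages were far apart, and P30c stood above the other P30 libraries. The log2 fold change was -3.44 ± 0.24 (edgeR adjusted p = 4.8e-06).

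Mest, a protein with a hydrolase fold, had 13.1, 15.8 and 5.40 CPM in P30a to P30c, against 54.3, 54.0, 73.4 and 68.2 CPM in P6a to P6d. The library P30c, high in Plagl1, was the low one here. The log2 fold change was -2.44 ± 0.30 (edgeR adjusted p = 1.4e-04), and -2.11 without P30c. Exons of Mest overlap those of Copg2 on the other strand, and reads there could be counted for either gene or for neither.

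Slc38a4, a sodium-coupled carrier of amino acids, was the steadiest of the paternal genes. Its levels were 56.8, 51.6 and 49.6 CPM in P30a to P30c, against 143, 137, 176 and 166 CPM in P6a to P6d. The P30 libraries differed among themselves by 7.04% (coefficient of variation) and the P6 libraries by 11.7%. On the log2 scale the fold change was -1.56 ± 0.11 (edgeR adjusted p = 6.4e-06).

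Peg3, a large zinc finger protein whose promoter carries the Plagl1 core printed above, had the smallest change among the paternal genes. It had 17.3, 13.4 and 17.1 CPM in P30a to P30c, against 31.7, 42.4, 21.3 and 27.8 CPM in P6a to P6d. The lowest P6 library, P6c, still lay above the highest P30 library. Its log2 fold change was -0.95 ± 0.22 (edgeR adjusted p = 0.0053).

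Dlk1, a membrane protein with EGF repeats that holds back adipocyte differentiation, was close to the limit of detection. It had 0 reads in each of P30a to P30c, against 4, 15, 25 and 4 reads in P6a to P6d, or 0.362, 0.499, 0.461 and 0.338 CPM. The level was too low for the filter on low counts, which asks for about 0.613 CPM in at least 3 libraries, so it was not among the 12561 genes tested. With 3 reads over all P30 libraries as the floor, its pooled P6 level was 7.11 times that floor. Counting error at P6 and spread between libraries were not allowed for in this ratio. Without the filter edgeR gave an adjusted p of 0.0022. The authors' deposited table, from DESeq2, gave 0.0020, the same value as the DESeq2 alternative described below. All come from the same counts, so they do not add to one another, and all rest on the P6 reads alone.

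**Figure D1:**
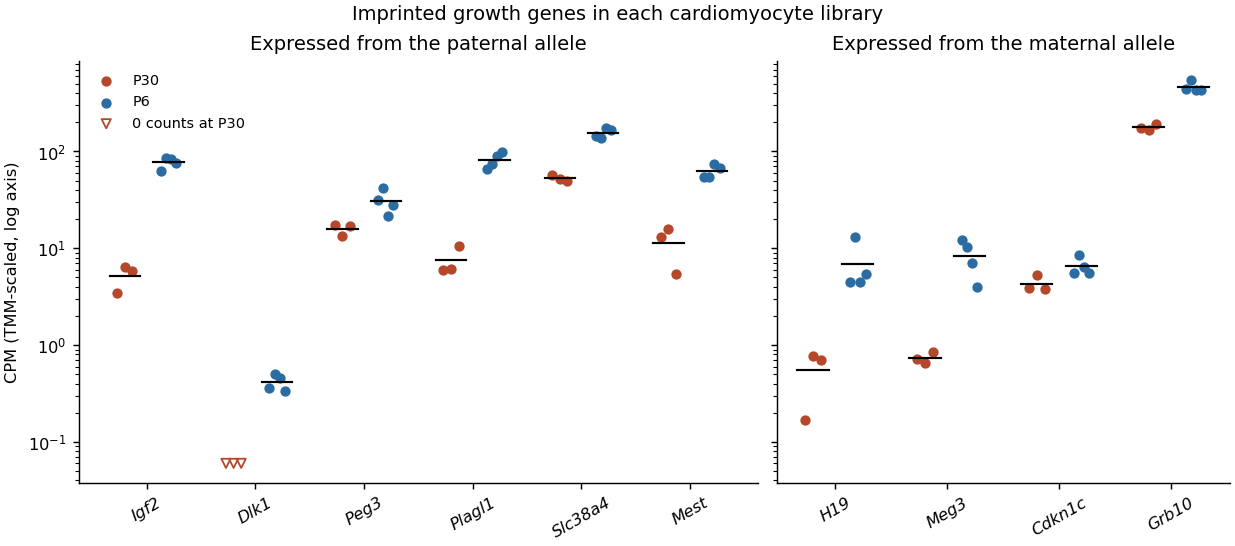
Level of each gene in each library, in CPM on a log axis; points are libraries, bars are group means, and open triangles mark the P30 libraries with 0 Dlk1 reads. For all 10 genes the 3 P30 libraries lie below the 4 P6 libraries, by a wide margin for Igf2 and Plagl1 and by a narrow one for Cdkn1c.

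H19, a long non-coding RNA transcribed next to Igf2, runs from 142575529 to 142578143 on the minus strand of chromosome 7. It had 0.167, 0.776 and 0.702 CPM in P30a to P30c, from 3, 12 and 10 reads. The P6 libraries held 4.43, 13.1, 4.50 and 5.49 CPM in P6a to P6d. The library P6b stood far above the others, and the same library had the highest summed level of 8 fibroblast markers among the P6 libraries, 391 CPM against 158 to 218 CPM in the rest. The part of such cells in the H19 level was not tested. As a log2 fold change this was -3.69 ± 0.59 (edgeR adjusted p = 6.0e-04), and -3.15 without P6b.

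Meg3, the long non-coding RNA that neighbours Dlk1, had 0.725, 0.646 and 0.842 CPM in P30a to P30c, from 13, 10 and 12 reads. At P6 it had 12.1, 10.3, 7.0 and 3.97 CPM in P6a to P6d. The P30 values lay close together, while the P6 values differed by 43.2% (coefficient of variation), with P6a and P6b above P6c and P6d. The log2 fold change was -3.49 ± 0.42 (edgeR adjusted p = 1.2e-04). H19 passed the filter on low counts in only 2 of 3 P30 libraries but in all 4 P6 libraries, so its place among the tested genes rested on the age at which it was high.

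Grb10, an adaptor protein that inhibits signalling by the insulin and insulin-like growth factor receptors, was the most counted member. Its levels were 175, 166 and 194 CPM in P30a to P30c, against 444, 544, 433 and 428 CPM in P6a to P6d. The groups were tight apart from P6b, which stood above the rest at P6. Between the ages the log2 fold change was -1.37 ± 0.11 (edgeR adjusted p = 1.2e-05).

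Cdkn1c encodes p57, an inhibitor of cyclin-dependent kinases. It had 3.91, 5.24 and 3.79 CPM in P30a to P30c, against 5.61, 8.49, 6.47 and 5.57 CPM in P6a to P6d. The highest P30 library nearly met the lowest P6 library. The log2 fold change of -0.61 ± 0.23 had an edgeR adjusted p of 0.0439, just past the threshold, and the call was lost in 7 of 13 alternative analyses (adjusted p 0.0185 to 0.14 over all of them). The authors' deposited table, from DESeq2, gave it an adjusted p of 0.0514. That value is the same as in the DESeq2 alternative counted above and adds nothing to it.

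**Figure D2:**
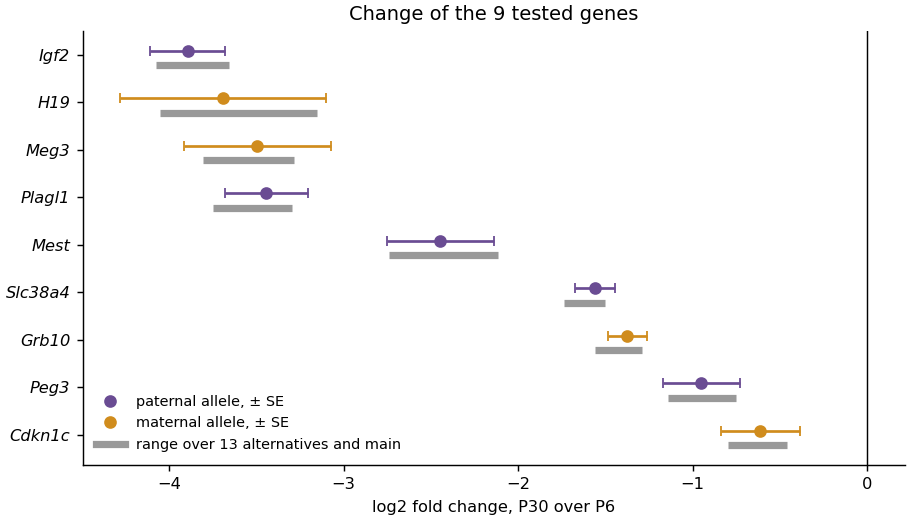
Log2 fold change, P30 over P6, of the 9 tested genes with its SE (points and thin bars; colours give the parental allele) and the range over the main analysis and 13 alternatives (grey). Igf2, H19, Meg3 and Plagl1 lie between -3.89 and -3.44, and no range reaches 0.

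By parental allele, 5 of 5 tested paternal genes and 4 of 4 tested maternal genes were lower, as were 27.8% of all tested genes. Median log2 fold changes were -2.44 and -2.43, and over all tested genes the median was -0.02. No maternal gene lay near its median: H19 and Meg3 had -3.69 and -3.49, Grb10 and Cdkn1c -1.37 and -0.61. The near-equal medians therefore do not mean an equal fall. The counts by allele describe chosen genes and carry no test. Among the maternal genes, H19 was tested only through its P6 level, and the call of Cdkn1c was lost in 7 of 13 alternative analyses. In all 10 members the CPM of the ages did not overlap, with P30 lower. This was so for 28.8% of tested genes, and 56.6% did not overlap in either direction. Dlk1 was not among the tested genes, so only the 9 tested members can be set beside these shares. Paternal genes summed to 96.6, 93.3 and 88.6 CPM in P30a to P30c, against 358, 394, 443 and 437 CPM in P6a to P6d. Maternal genes summed to 180, 173 and 199 CPM in P30a to P30c, against 466, 576, 451 and 443 CPM in P6a to P6d. The paternal genes made up 33.6% ± 2.44 (SD, n = 3) of all member counts at P30, against 45.8% ± 4.55 (SD, n = 4) at P6. Within P6 this share was 43.4% and 40.6% in P6a and P6b, and 49.6% and 49.7% in P6c and P6d. The reason for this split was not tested. Grb10 alone made up 64.4% ± 2.63 at P30, against 51.8% ± 3.85 at P6. These shares compare whole genes and say nothing of which allele a read came from.

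Levels of different genes were compared per kilobase of exon, as CPM per kilobase (mean ± SD). At P30 Grb10 led with 34.8 ± 2.75, followed by Slc38a4 (12.8 ± 0.899) and Mest (4.12 ± 1.95), and then by Cdkn1c, Peg3, Plagl1 and Igf2 at 2.22 to 0.996. At P6 Grb10 also led with 90.1 ± 10.8, followed by Slc38a4 (37.7 ± 4.40), Mest (22.5 ± 3.55), Plagl1 (15.2 ± 2.83) and Igf2 (14.7 ± 1.98). Plagl1 and Igf2 did not differ beyond their spread at either age, nor did Peg3 and Cdkn1c. Igf2 thus ranked below Cdkn1c and Peg3 at P30 and above both at P6. H19, Meg3 and Dlk1 had the lowest means at both ages, with 0.24, 0.047 and 0 at P30, against 3.01, 0.533 and 0.0867 at P6. At P6 H19 (SD 1.83) did not differ beyond its spread from Cdkn1c (3.37 ± 0.704) and Peg3 (3.54 ± 1.02), and in P6b it lay above both.

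Shares of counts within each of the pairs of neighbours do not depend on library scaling. Igf2 made up 95.4%, 89.1% and 89.4% of Igf2 and H19 counts in P30a to P30c, against 93.4%, 86.8%, 94.9% and 93.3% in P6a to P6d. The ages overlapped: the mean was 91.3% ± 3.56 at P30, against 92.1% ± 3.60 at P6, a difference of -0.805 percentage points (exact permutation test over 35 splits, two-sided, p = 0.83, and 0.83 adjusted over 2 pairs). This difference was smaller than the spread between libraries of either age.

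Dlk1 made up 0 of 13, 0 of 10 and 0 of 12 reads of Dlk1 and Meg3 in P30a to P30c, against 2.90%, 4.62%, 6.17% and 7.84% in P6a to P6d. Over the 35 reads at P30, a count of 0 allows a share of up to 8.57%, above the 5.38% ± 2.12 (SD, n = 4) at P6. A fall of this share from its P6 level was therefore not detectable at this depth. Such limits cover counting error only. The exact permutation test gave p = 0.0571 (0.114 adjusted), where 0.0286 is the smallest that 35 splits allow before adjustment. The P30 shares were all 0 already, so with these P6 shares no fall could have given a smaller p. Greater depth at P30 could not have brought this test past the threshold, and no conclusion is drawn from it.

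**Figure D3:**
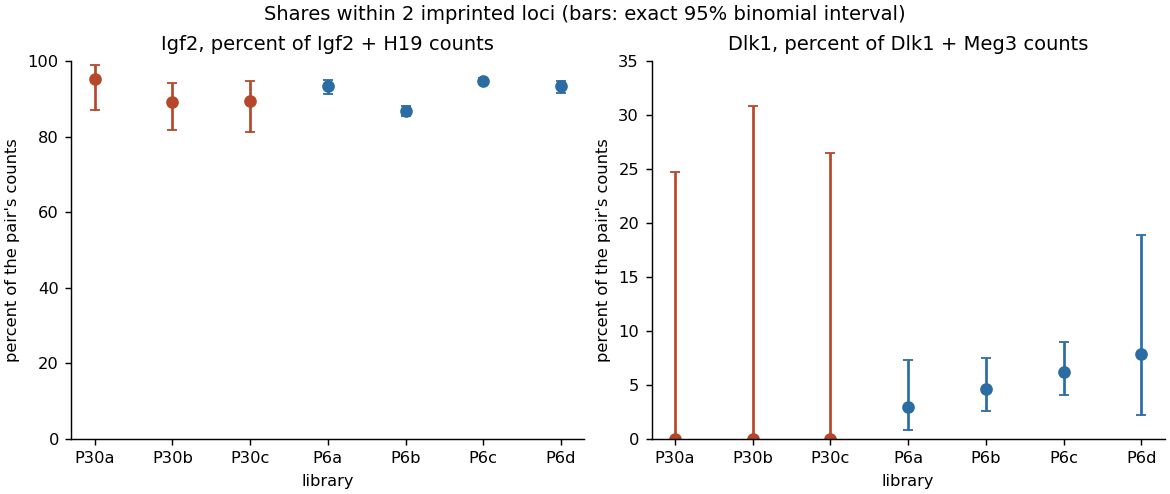
Percent of Igf2 in Igf2 and H19 counts (left) and of Dlk1 in Dlk1 and Meg3 counts (right) in each library, P30 in red and P6 in blue, with exact (Clopper-Pearson) 95% binomial intervals. Igf2 shares lie between 86.8% and 95.4% at both ages, and the intervals of the 3 P30 libraries for Dlk1 reach past every P6 value.

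Other imprinted genes changed less evenly. Of 28 in a list of textbook imprinted genes, 25 had a read and 14 were tested; 8 of these were lower, 2 higher and 4 not past the threshold, where 27.8% of all tested genes were lower and 26.3% higher. Nap1l5 and Klf14 reached the filter level in 0 of 3 P30 libraries and in all 4 P6 libraries, so they were tested only through the age at which they were high, and their falls add no support to the count. Zim1 reached it in 3 of 3 P30 and 2 of 4 P6 libraries. Sgce, which encodes epsilon-sarcoglycan, had 5.80 ± 1.32 CPM at P30 (SD, n = 3), against 22.3 ± 2.64 CPM at P6 (SD, n = 4), with an edgeR adjusted p of 3.1e-05. Ndn, the gene of necdin, had a log2 fold change of -1.27 ± 0.18. Nap1l5, one of the genes tested through P6, had a log2 fold change of -3.52 ± 0.83. It had 0.614, 0.388 and 0.281 CPM in P30a to P30c, against 11.1, 6.39, 1.36 and 1.86 CPM in P6a to P6d, and P6a and P6b stood high as they did for Meg3. Zrsr1 had 29.0 CPM in P6c and at most 4.70 CPM in any other library, and without P6c its log2 fold change was -1.08 instead of -2.71 (edgeR adjusted p = 0.118); its call was also lost without any of the P30 libraries.

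Of the paternal genes in that list 6 of 9 tested were lower and 1 higher, and of the maternal genes 2 of 5 were lower and 1 higher. Over all tested genes 27.8% were lower and 26.3% higher. The 6 lower paternal genes include Nap1l5, tested only through its P6 level, and Zrsr1, whose call was lost in the ways given above. The maternal counts rest on 5 genes and are not read as a result. The lower maternal genes were Tssc4 (-0.68 ± 0.14) and Klf14 (-2.74 ± 0.49), of which Klf14 was tested only through its P6 level. In the other direction Peg13, a non-coding RNA, rose to 37.5 ± 2.63 CPM at P30, against 12.6 ± 0.312 CPM at P6. Zim1, a zinc finger gene beside Peg3, had 1.61 ± 0.672 CPM at P30, against 0.512 ± 0.257 CPM at P6; its call was lost without P30a or without P30c (edgeR adjusted p = 0.062 and 0.0916). Airn, the non-coding RNA antisense to Igf2r, had a log2 fold change of -0.91 ± 0.22, but reads from Igf2r introns cannot be told from it without strand.

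**Figure D4:**
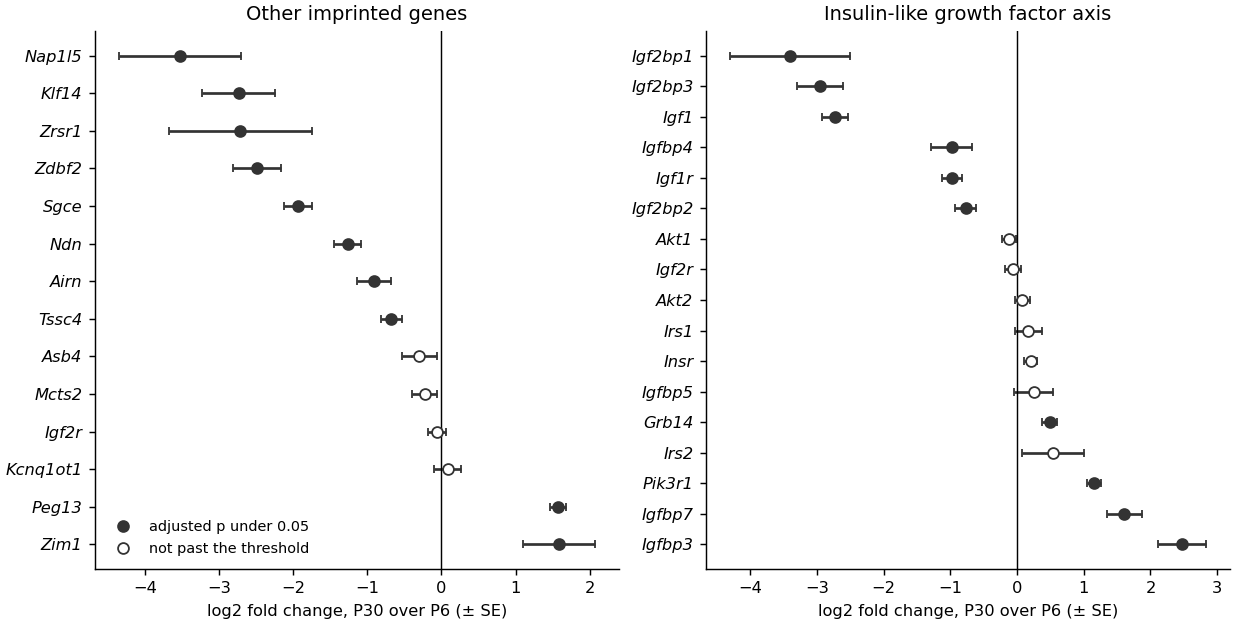
Log2 fold change, P30 over P6, with its SE for the 14 tested genes of the other imprinted list (left) and the 17 tested genes of the insulin-like growth factor axis (right); filled points passed an adjusted p of 0.05. In the left panel 8 genes are lower and 2 higher, and in the right panel 6 are lower and 4 higher.

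Of 17 tested genes of the insulin-like growth factor axis, through which Igf2 and Grb10 act, 6 were lower, 4 higher and 7 not past the threshold. These shares are near those of all tested genes, 27.8% lower and 26.3% higher, so the counts show nothing about the axis, and the values below describe single genes. Igf2bp1, among the 6 lower, reached the filter level in 0 P30 libraries. Igf1, the ligand of postnatal growth, fell along with Igf2, to 9.0 ± 2.42 CPM at P30, against 59.9 ± 7.45 CPM at P6 (log2 fold change -2.74 ± 0.19). Their receptor Igf1r fell by 0.98 ± 0.16 on the log2 scale, whereas the clearance receptor Igf2r did not pass the test (-0.06 ± 0.12). Igf2bp3, which binds Igf2 mRNA, fell by 2.96 ± 0.35, and Igf2bp2 by 0.77 ± 0.15. Grb14, the close relative of Grb10, rose to 380 ± 3.75 CPM at P30, against 271 ± 42.9 CPM at P6. Pik3r1, a regulatory subunit of phosphoinositide 3-kinase, rose by 1.16 ± 0.11 on the log2 scale.

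Igfbp7, a secreted binding protein, rose by 1.61 ± 0.26 on the log2 scale. The 6 endothelial markers rose too, to 248 to 500 CPM in sum at P30, against 74.2 to 139 CPM at P6, and their part in it was not tested. Igfbp3, another binding protein, had the largest rise of the 4 higher genes of the axis, 2.47 ± 0.36 on the log2 scale (edgeR adjusted p = 3.6e-04). Igfbp4, also a binding protein, fell by 0.98 ± 0.31, and its call was lost without P6b, P30a or P30c (edgeR adjusted p = 0.0502, 0.0816 and 0.0586). Beside Cdkn1c, the related inhibitors Cdkn1a and Cdkn1b were lower too, by 1.23 ± 0.13 and 0.77 ± 0.27 on the log2 scale.

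Genes next to the members were also read. The nearest tested gene on each side, outside the imprinted lists, gave 16 genes, of which 4 were lower, 2 higher and 10 not past the threshold; over all tested genes 27.8% were lower, 26.3% higher and 54.1% called in all. Mrpl23, a mitochondrial ribosomal protein gene 34.8 kb from H19, had a log2 fold change of -0.17 ± 0.21, and Wdr25 and Ppp2r5c, the nearest tested genes on the sides of Dlk1 and Meg3, 424 kb and 875 kb away, had 0.17 ± 0.21 and -0.14 ± 0.08. Sf3b5 and Ltv1, within 51.3 kb of Plagl1, had -0.42 ± 0.16 and -0.02 ± 0.12, and neither passed the test. Kcnq1 and Nap1l4, on the sides of Cdkn1c, did not pass either. The higher neighbours were 2210408F21Rik, 472 kb from Mest, with a log2 fold change of 2.71 ± 0.24, and Zfp954 beside Peg3, with 0.68 ± 0.18. Lower neighbours were found beside Grb10, where Ddc fell by 2.19 ± 0.32 and Cobl by 1.10 ± 0.20, beside Slc38a4, where its relative Slc38a2 fell by 0.94 ± 0.11, and beside Igf2, where R74862, 355 kb away, fell by 0.89 ± 0.22. Ddc, which encodes the aromatic amino acid decarboxylase, is known to be imprinted in the mouse heart. A place outside the imprinted lists therefore does not mean that a neighbour is free of imprinting.

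The genes most like Igf2 over the 7 libraries, by Pearson's r of log2 CPM among 8222 genes with a mean of at least 10 CPM, were Arpc4 (0.998), Vash2 (0.997), Tmem98 (0.997), Cdk2 (0.997) and 1110051M20Rik (0.996). Those most like Grb10 were Ccdc8 (0.998), Maged1 (0.997), Golga1 (0.997), Gipc1 (0.997) and Afmid (0.996). These values rest mainly on the step between the ages and are descriptive. The size of the step differed widely among them, with log2 fold changes of -7.32 ± 0.27 for Vash2 and -0.69 ± 0.12 for 1110051M20Rik.

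Of the marker lists of other cell types, the endothelial and leukocyte sums did not overlap between the ages, while the fibroblast, smooth muscle and epicardial sums did. The 6 cardiomyocyte markers summed to 84069 to 86467 CPM at P30, against 56508 to 67156 CPM at P6. Most of this difference was Myh6, with a mean of 57300 CPM at P30, against 33636 CPM at P6. Of the 6 cardiomyocyte markers 3 were higher (Myh6, Ryr2 and Tnni3) and none was called lower. Tnnt2, Pln and Actn2 had log2 fold changes of -0.07, -0.27 and -0.16 and did not pass the threshold. The CPM of Actn2 was nevertheless lower in every P30 library than in any P6 library. Beside the endothelial rise given above, the 5 leukocyte markers in the table rose to 10.4 to 32.4 CPM, against 1.90 to 3.71 CPM at P6. The 8 fibroblast markers overlapped between the ages, with 137 to 313 CPM at P30, against 158 to 391 CPM at P6; 7 were tested, none was higher and Postn was lower. Smooth muscle and pericyte markers summed to 952 to 1805 CPM at P30, against 979 to 2187 CPM at P6, most of it Acta2, which immature cardiomyocytes also express. Of 7 tested, 3 were higher and 1 was lower. Epicardial markers summed to 6.25 to 8.07 CPM at P30, against 4.52 to 10.7 CPM at P6, with 1 of 4 lower. The most counted genes of the fibroblast, endothelial, leukocyte and epicardial lists were Col3a1, Kdr, Lyz2 and Tbx18. Of 2 erythroid genes in the table, neither of them tested, Hba-a1 was listed at 0 in all 7 libraries. Alas2 had 0.112, 0.452 and 0.14 CPM in P30a to P30c, against 1.09, 1.27, 0.0553 and 0.506 CPM in P6a to P6d. The part of these cells in the levels of the imprinted genes was not tested.

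**Figure D5:**
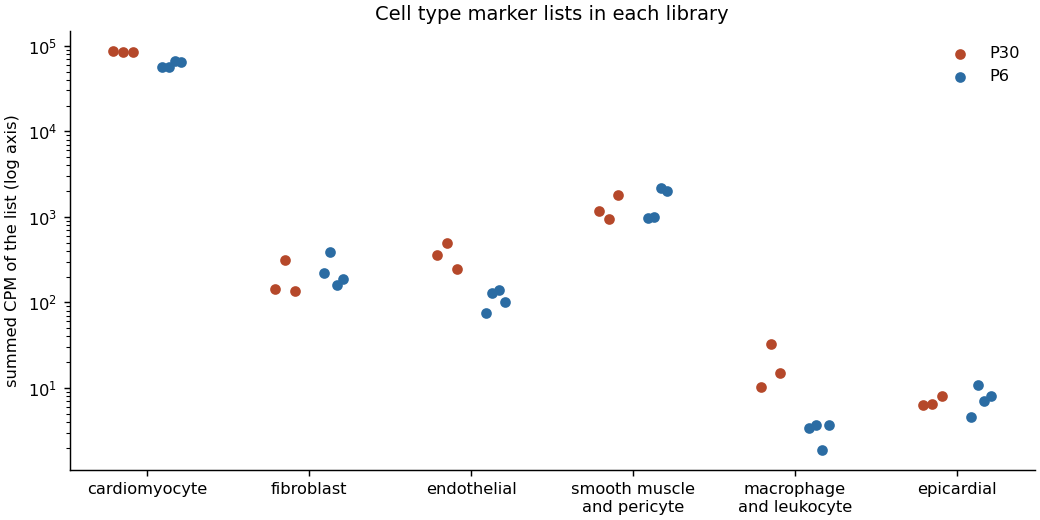
Summed CPM of each cell type marker list in each library on a log axis, P30 in red and P6 in blue. Endothelial and leukocyte sums are higher in all 3 P30 libraries than in any P6 library, and fibroblast sums overlap, with P6b and P30b highest at their ages.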

How the data were processed

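Per the submitters' processing notes, the authors used CASAVA 1.8, STAR 2.5.3a and featureCounts (Subread 1.5.2) with the mm10 genome, and they deposited raw counts for each gene in 7 libraries. No source used here gives the strand setting, the annotation or how multi-mapping reads were treated. A second deposited table, from DESeq2 per the file headers, holds the authors' baseMean (a signal averaged over libraries), log2 fold changes with SE, Wald score, p-values and adjusted p-values. Titles, ages and design place collection at P6 or P30, and these ages were taken, although the treatment text says P14. Each column was assigned to an age from its name alone, since its letter matches no title number.

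Low counts were removed with filterByExpr, libraries were scaled by TMM, and age was the single term of a quasi-likelihood model in edgeR 4.0.16 under R 4.3.3. The procedure was tested on simulated data in which 200 genes were set to change, some up and some down. In the real data 54.1% of tested genes were called, a setting that these simulations did not cover. SE is the log2 fold change over the root of F. Alternatives were DESeq2 1.42.0, other scaling, no filter, a transcript length trend removed from each library and each library left out. Lengths and coordinates came from GENCODE mouse release 21 (GRCm38), matched by symbol for 20953 genes and by an older symbol for 1947 more. Within an age, every pair of libraries differed beyond sampling noise (chi-square per gene at least 13.0). Members, gene lists, markers, motifs and the rule for named genes (all members; in each list the 3 called genes of highest mean CPM per direction and the largest change at a mean of at least 1 CPM; the most counted gene of each marker list; the 5 genes of at least 10 CPM most like Igf2 and Grb10) were chosen with earlier results of these data known. Neighbouring genes were added after the values were seen, as were further genes named to complete a list.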

Additional observations from a re-analysis of the deposited data

Results flagged for a closer look

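In P6b the level of H19 was 13.1 CPM, far from the other P6 libraries (4.43, 4.50 and 5.49 CPM). The level of Grb10 was also highest in P6b, at 544 CPM, with 428 to 444 CPM in the other P6 libraries. Both were found by Dixon's test, in which the gap to the nearest library, over the range of the 4, was 0.879 for H19 and 0.862 for Grb10, both above the critical value for 4 values. Chance flags about 1 in 20 groups, and 14 were tried. Without P6b the log2 fold changes were -3.15 for H19 and -1.29 for Grb10.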

How the results depend on the processing

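Over 13 alternatives, 252 of 261 recomputed values kept their direction and side of the threshold, or stayed within 1.5 times a count or 1 SD of a share. The exceptions were Cdkn1c, whose call was lost in 7, and the count of other imprinted genes higher at P30, which was 1 to 2 with 1 library left out, against 2 with all. Cdkn1c had an adjusted p of 0.0575 without the filter, 0.0514 by DESeq2 and 0.0858 with the length trend removed, and 0.0987, 0.0761, 0.14 and 0.125 without P6b, P6c, P30a and P30c; the cause was not tested. Members lower at P30 numbered 8 to 9 with 1 library left out. Library totals moved the median over all genes by -0.18 on the log2 scale; no filter moved it by 0.23 and DESeq2 by 0.10. With library totals all genes gave 2408 higher and 4658 lower, against 3307 and 3490 with TMM factors, and all 9 tested members were still lower, with a log2 fold change of -4.08 for Igf2. The difference in Igf2 share ran from -2.86 to 0.29 percentage points with 1 library left out, and that of Dlk1 from -6.21 to -4.56; 6 libraries cannot reach the threshold in these tests, so none was made. No paired analysis was possible because the columns carry letters that match no replicate number of the labels. Depth limits Dlk1, H19 and Meg3 at P30, each at 13 reads or fewer per library.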
